A study of Homo sapiens with 6 samples.

Results

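The transcription factors that drive the epithelial-mesenchymal transition (EMT), 2 epithelial factors that oppose them and vimentin were examined in MDA-MB-231 cells, a human triple-negative breast cancer (TNBC) line with mesenchymal features. These 10 genes (ZEB1, ZEB2, SNAI1, SNAI2, TWIST1, TWIST2, TCF4, VIM, GRHL2 and OVOL1) were taken by symbol, whatever their expression, and all 10 were found among the 63241 genes of the count files. They and the gene lists below were chosen with earlier results of these data known. The wild-type cells were treated for 24 h with 5 μM nitidine chloride (NCD), a plant alkaloid, or with 0.1% DMSO as vehicle, and 3 libraries per group were sequenced. It is 1 cell line at 1 dose and 1 time. The labels do not say whether the libraries of a group came from separate cultures, so p-values measure the spread between these libraries, which may be technical. For NCD replicates 2 and 3 the cell line field says MDA-MB-231 while the free text names different lines, and no call on a member was lost without either of them.

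EMT factors bind E-box motifs in promoters and switch off epithelial genes such as CDH1, the gene of E-cadherin. ZEB1 and ZEB2 are zinc finger and homeobox repressors that recruit CtBP, and they and the miR-200 family of microRNAs repress each other. SNAI1 (Snail) and SNAI2 (Slug) are zinc finger repressors whose proteins are short-lived. TWIST1 and TWIST2 are basic helix-loop-helix factors that pair with E proteins, and TCF4 (E2-2) is such an E protein, not the Wnt effector TCF7L2 that is also called TCF4. GRHL2 and OVOL1 repress ZEB1 in epithelial cells, and vimentin is the intermediate filament protein of mesenchymal cells.

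NCD treatment was accompanied by opposite changes within this set. ZEB1 fell 8.57-fold and ZEB2 fell 2.11-fold, SNAI1 rose 4.75-fold, and SNAI2 and VIM stayed close to their DMSO levels. TWIST1, TWIST2, TCF4, GRHL2 and OVOL1 had at most 1 count in any library. A gene was called when the Benjamini-Hochberg adjusted p over all 15295 tested genes was below 0.05 in edgeR's quasi-likelihood test and the absolute log2 fold change was above 1. Of the 5 members that passed the filter on low counts, 1 was called higher and 2 lower. Over all tested genes 31.0% were called, 13.5% higher and 17.5% lower, so calls were common in these data. With library totals in place of TMM scaling, 56.1% of all calls were higher against 43.6% with TMM, and the median of all genes shifted by 0.20 on the log2 scale.

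The sequences through which these genes are linked to one another are shown first, because the ZEB genes hold more miR-200 seed matches than nearly all other genes. Mature miR-200 family sequences from RefSeq (GRCh38.p14) are given with the seed, bases 2 to 8, in capitals. The first set shares the seed AAUACUG and the second set AACACUG.
hsa-miR-200b-3p: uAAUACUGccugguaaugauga
hsa-miR-200c-3p: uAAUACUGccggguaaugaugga
hsa-miR-429: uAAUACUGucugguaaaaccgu
hsa-miR-200a-3p: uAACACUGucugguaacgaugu
hsa-miR-141-3p: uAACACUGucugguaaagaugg
MIR200B, MIR200A and MIR429 lie on chromosome 1 and MIR200C and MIR141 on chromosome 12. The 3′ UTR of ZEB1 (2549 bases in GENCODE release 29) held 6 matches to the first seed (CAGTATT) and 3 to the second (CAGTGTT). The 3′ UTR of ZEB2 (5370 bases) held 5 and 4. Among 18791 genes, 0.0266% had 9 or more such matches, whatever the length of their 3′ UTR. SNAI1 (830 bases) and VIM (322 bases) had 0. These matches describe the letters only. The libraries hold no mature microRNAs, and the host transcript of MIR200C and MIR141, MIR200CHG, had 0 counts in all 6 libraries, as did MIR205HG, the host gene of miR-205.

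The E-box recognised by ZEB and SNAI proteins was searched as CACCTG and as its reverse complement CAGGTG in RefSeq promoter windows of 300 bases, from 250 before to 50 after each start. Of all 35116 windows 20.6% held it. Windows were given for 5 members (ZEB1, ZEB2, TWIST2, TCF4 and VIM), and only that of ZEB1 held the motif. The bases before the ZEB1 start are shown because they lie inside the span of the antisense gene ZEB1-AS1, whose level is set beside that of ZEB1 below. Those of DSP, the gene of the desmosome protein desmoplakin, are shown as an example of an epithelial promoter with the motif, chosen after its values were seen and ended where the annotated gene begins. E-boxes are in capitals.
ZEB1, chr10:31318167-31318416, plus strand, GRCh38.p14: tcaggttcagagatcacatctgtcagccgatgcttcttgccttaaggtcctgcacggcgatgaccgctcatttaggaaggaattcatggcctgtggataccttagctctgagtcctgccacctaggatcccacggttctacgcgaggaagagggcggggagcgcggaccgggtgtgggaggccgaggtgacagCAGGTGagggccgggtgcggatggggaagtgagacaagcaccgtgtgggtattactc
DSP, chr6:7541421-7541574, plus strand, GRCh38.p14: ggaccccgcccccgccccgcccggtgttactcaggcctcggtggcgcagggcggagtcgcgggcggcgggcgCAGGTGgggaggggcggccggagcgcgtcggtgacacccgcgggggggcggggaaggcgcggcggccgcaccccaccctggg
The motif began 57 bases before the RefSeq start of ZEB1 and 178 bases before that of DSP.

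ZEB1 (ENSG00000148516, chromosome 10, 31318495 to 31529814 plus strand, by GENCODE release 29 coordinates on GRCh38) was the most abundant of the 4 detected EMT factors among the members, per transcript length, in control cells. Counts were 1072, 1913 and 1423 for DMSO and fell to 178, 143 and 301 for NCD. In CPM (counts on a common, TMM-scaled library size) this was 64.6, 108 and 78.0 with DMSO and 7.78, 7.40 and 14.0 with NCD. Every NCD library was far below every DMSO library, and DMSO replicate 2 and NCD replicate 3 were the highest of their groups. The mean fell from 83.6 ± 22.4 to 9.74 ± 3.73 CPM (SD, n = 3 in each group). The log2 fold change was -3.10 (standard error 0.27, 95% interval -3.71 to -2.49), with adjusted p = 8.15e-06 from edgeR. Fits without 1 library gave -3.48 to -2.88.

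ZEB1 was also the most variable member between replicates. The SD of its log2 CPM was 0.37 within the DMSO group and 0.49 within the NCD group, against a median of 0.09 for the 500 genes nearest to it in expression. Its highest library exceeded its lowest 1.68 times with DMSO and 1.90 times with NCD. The fall of 8.57-fold was larger than this spread. Over all tested genes, DMSO replicate 2 and NCD replicate 3 also stood apart from their groups. Chi-square per degree of freedom between libraries was 16.2 and 8.33 for pairs with DMSO replicate 2, against 4.29 without it. For pairs with NCD replicate 3 it was 15.9 and 14.1, against 2.06 without it.

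ZEB2 (ENSG00000169554, chromosome 2, 144364364 to 144524583, minus strand), the paralog of ZEB1, was about an order of magnitude lower than ZEB1 in control cells. Its level was 10.1, 11.4 and 11.1 CPM with DMSO and 4.85, 4.60 and 5.97 CPM with NCD, from 89 to 202 counts per library. The groups did not overlap and the replicates lay close together. The mean fell from 10.8 ± 0.686 to 5.14 ± 0.727 CPM (SD, n = 3 in each group), with a log2 fold change of -1.07 (standard error 0.13, 95% interval -1.38 to -0.77, adjusted p = 8.83e-05 from edgeR). This value lies just past the fold threshold. With library totals in place of TMM it was -0.88 (adjusted p = 0.000617 from edgeR) and the call was lost, though the direction remained.

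SNAI1 (ENSG00000124216, chromosome 20, 49982999 to 49988886, plus strand) was the member that rose. Under DMSO its counts were 12, 19 and 15, close to the limit of what can be measured, and under NCD they were 97, 86 and 83. This was 0.723, 1.08 and 0.822 CPM with DMSO and 4.24, 4.45 and 3.87 CPM with NCD. The lowest NCD library was well above the highest DMSO library. The mean rose from 0.873 ± 0.181 to 4.19 ± 0.293 CPM (SD, n = 3 in each group), with a log2 fold change of 2.25 (standard error 0.21, 95% interval 1.77 to 2.73, adjusted p = 1.43e-05 from edgeR). Fits without 1 library gave 2.11 to 2.41.

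SNAI2 (ENSG00000019549, chromosome 8, 48917604 to 48921740, minus strand), the other SNAI factor among the members, differed little between the groups. Its level was 22.9, 24.8 and 23.1 CPM with DMSO and 22.0, 20.6 and 21.7 CPM with NCD. The ranges did not overlap, but the gap between them was small. The log2 fold change was -0.14 (standard error 0.08, 95% interval -0.32 to 0.04, adjusted p = 0.149 from edgeR), so the interval leaves no room for a change past the fold threshold. With library totals the sign turned, to 0.06 (adjusted p = 0.546 from edgeR).

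VIM (ENSG00000026025, chromosome 10, 17228259 to 17237593, plus strand) was among the most abundant transcripts of the cells. Its level was 3156, 3056 and 2956 CPM with DMSO and 2749, 2673 and 2491 CPM with NCD, from 51657 to 62920 counts per library. All NCD libraries were below all DMSO libraries, by a small margin. The mean went from 3056 ± 100.1 to 2638 ± 133 CPM (SD, n = 3 in each group), a log2 fold change of -0.21 (standard error 0.07, 95% interval -0.38 to -0.05, adjusted p = 0.0256 from edgeR). This passed the test without a fold threshold, as 69.3% of all tested genes did, but was not called. With library totals the value was -0.02 (adjusted p = 0.812 from edgeR).

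For each of the 5 tested members an exact permutation test of CPM (two-sided) gave p = 0.100, the smallest p that 3 against 3 libraries allow. Groups that do not overlap were common, with 72.6% of all tested genes, 37.2% higher and 35.3% lower with NCD. In bulk RNA, fewer cells expressing a gene and less RNA per cell cannot be told apart.

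**Figure D1:**
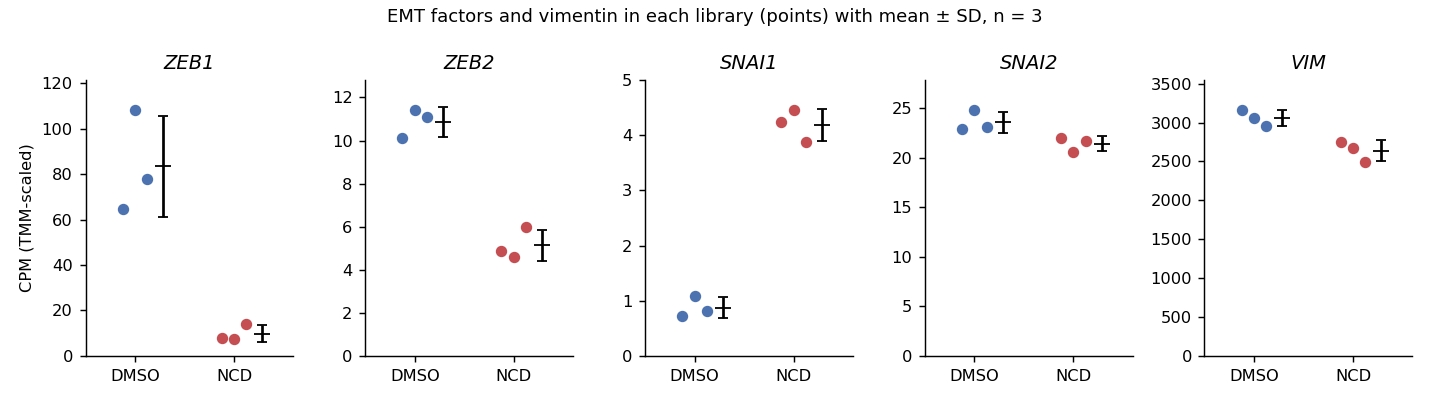
Expression of the 5 tested members in CPM on TMM-scaled library sizes, 1 panel per gene with its axis from 0. Points are libraries (blue DMSO, red NCD) and bars give the mean ± SD of 3 libraries. ZEB1 falls from 64.6 to 108 CPM down to 7.40 to 14.0 CPM, SNAI1 rises from at most 1.08 CPM to at least 3.87 CPM, and SNAI2 and VIM lie close together in both groups.

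The remaining members were not measurable at this depth. TWIST1 (ENSG00000122691), TWIST2 (ENSG00000233608), TCF4 (ENSG00000196628) and GRHL2 (ENSG00000083307) had 0 counts in each of the 6 libraries. A count of 0 allows a level of up to 3 counts, which is 0.131 to 0.181 CPM depending on the library, for counting error only. OVOL1 (ENSG00000172818) had counts of 0, 1 and 0 under DMSO and 1, 0 and 1 under NCD. No fold change is given for these 5 genes. Among the members, the zinc finger factors of the ZEB and SNAI families were thus the EMT factors detected, and neither of the 2 listed repressors of ZEB1 was above this limit with or without NCD.

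Levels of different genes were compared as CPM per kb of the longest annotated transcript. In each of the 3 DMSO libraries the order from high to low was VIM, ZEB1, SNAI2, ZEB2 and SNAI1. In each of the 3 NCD libraries it was VIM, SNAI2, SNAI1, ZEB1 and ZEB2. With DMSO the levels were 1146 ± 37.5 for VIM, 13.3 ± 3.57 for ZEB1, 8.35 ± 0.379 for SNAI2, 1.13 ± 0.0715 for ZEB2 and 0.518 ± 0.108 for SNAI1 (CPM per kb, SD, n = 3). With NCD they were 989 ± 49.8 for VIM, 7.58 ± 0.251 for SNAI2, 2.48 ± 0.174 for SNAI1, 1.55 ± 0.595 for ZEB1 and 0.536 ± 0.0758 for ZEB2 (CPM per kb, SD, n = 3). SNAI1 and ZEB1 were at 2.51 and 1.24 CPM per kb in NCD replicate 1 and at 2.64 and 1.18 in NCD replicate 2, and lay close together, at 2.30 and 2.24, only in NCD replicate 3. With the summed exon length of each gene in place of the longest transcript, SNAI1 lay above ZEB2 in the DMSO libraries, so the order of these neighbours depends on the length used.

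Ratios within a library do not depend on how libraries are scaled. ZEB1 exceeded SNAI1 per kb 24.0, 27.1 and 25.5 times in the DMSO libraries, and the ratio was 0.494, 0.447 and 0.976 in the NCD libraries. ZEB1 to SNAI2 went from 1.27, 1.97 and 1.53 to 0.160, 0.162 and 0.291. SNAI2 thus became the most abundant of these 4 factors per kb while its own level hardly moved. Among 14692 genes ranked by CPM per kb, ZEB1 went from ranks between 3635 and 5255 to ranks between 9772 and 11103. SNAI1 went from between 12604 and 13025 to between 9109 and 9711, and VIM held ranks between 32 and 42 in all 6 libraries.

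**Figure D2:**
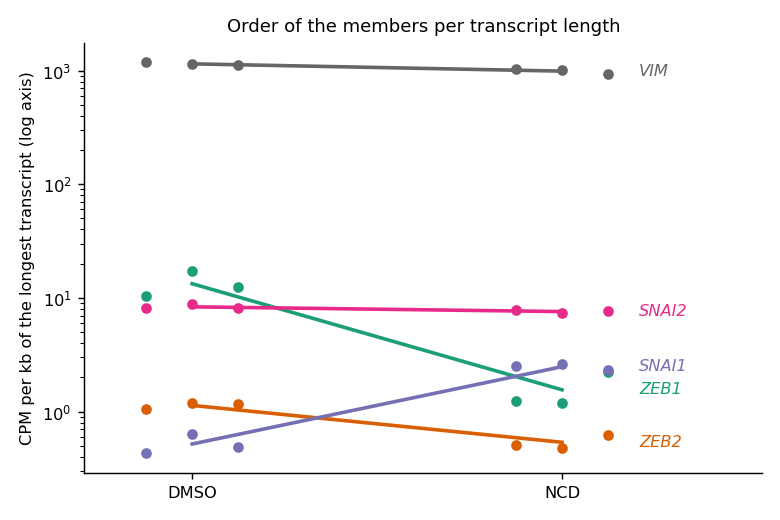
Levels of the 5 tested members in CPM per kb of the longest transcript, on a log axis, with points for libraries and lines between the means of 3 DMSO and 3 NCD libraries. ZEB1 crosses below SNAI2 and SNAI1 with NCD, and VIM stays far above the others.

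Gene span, the genomic distance from start to end, moved with the response across the transcriptome. Among tested genes of at most 10 kb the median log2 fold change was 0.33 and 6.23% were called lower. From 100 to 250 kb the median was -1.27 with 61.0% called lower, and above 250 kb it was -2.91 with 84.8% called lower. Both ZEB genes are long (211.3 kb for ZEB1, 160.2 kb for ZEB2), and SNAI1 (5.9 kb), SNAI2 (4.1 kb) and VIM (9.3 kb) are short.

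Each member was therefore set beside the 500 tested genes nearest to it in span, as a description. The genes like ZEB1 (179.0 to 249.6 kb) had a median log2 fold change of -1.98, 76.6% of them were called lower, and ZEB1 lay at percentile 9.80 of their values. The genes like ZEB2 had a median of -1.44, and ZEB2 lay at percentile 66.6, so it fell less than most genes of its span. SNAI1 lay at percentile 96.0 against a median of 0.39, SNAI2 at percentile 20.8 against 0.37 and VIM at percentile 19.0 against 0.40. The part of span in these changes was not tested.

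**Figure D3:**
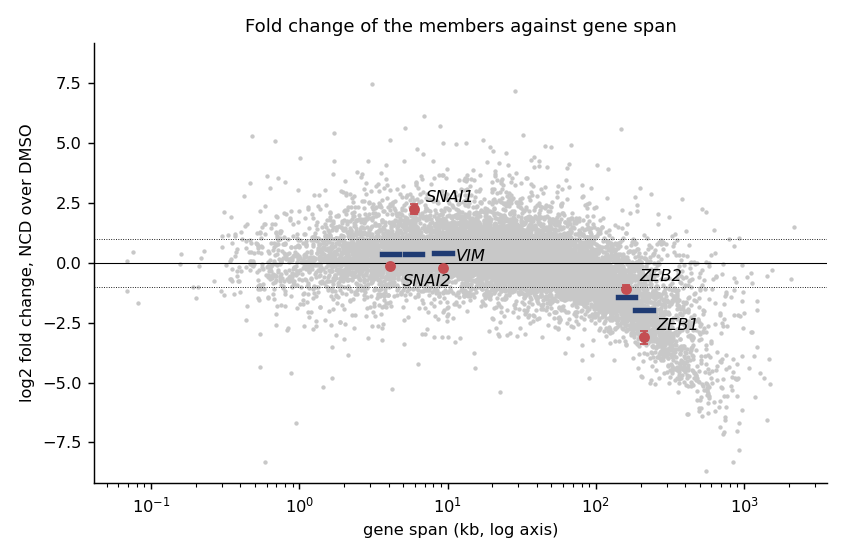
Log2 fold change (NCD over DMSO) of tested genes with an annotated span (grey) against gene span in kb on a log axis. Members are red with ± 1 standard error, blue bars give the median of the 500 genes nearest in span, and dotted lines mark the fold threshold of 1. ZEB1 at -3.10 lies below its neighbours' median of -1.98, and SNAI1 at 2.25 lies above its neighbours' median of 0.39.

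ZEB1-AS1, a long noncoding RNA gene that starts head to head with ZEB1 on the other strand (chromosome 10, 31206278 to 31320447), differed little between the groups. Its level was 8.74, 8.83 and 8.66 CPM with DMSO and 7.69, 8.07 and 9.65 CPM with NCD, and the groups overlapped. The log2 fold change was -0.05 (standard error 0.12, 95% interval -0.32 to 0.23, adjusted p = 0.752 from edgeR), and a test of its difference from ZEB1 was not made. VIM-AS1, which overlaps the start of VIM on the other strand, went from 9.93 ± 1.12 to 5.62 ± 0.987 CPM (SD, n = 3), a log2 fold change of -0.82 (adjusted p = 0.00140 from edgeR) that was not called. ZEB2-AS1 was at 0 counts in every DMSO library and at 0, 2 and 1 under NCD. The sources used here do not say whether the counting used strand, so reads of overlapping antisense pairs cannot be told apart. The other genes overlapping a member had at most 7.9 counts in any library.

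Of 24 other listed EMT factors 19 were tested, and 6 were called higher and 5 lower, beside 13.5% and 17.5% of all tested genes. Their median log2 fold change was 0.04, the same as for all tested genes. The E protein TCF12, a partner of TWIST factors, fell from 70.0 ± 7.94 to 3.33 ± 0.875 CPM (SD, n = 3; log2 fold change -4.39, adjusted p = 5.99e-08 from edgeR). HMGA2, a chromatin protein that acts upstream of SNAI1 and TWIST1, fell from 68.0 ± 6.38 to 7.01 ± 0.878 CPM (SD, n = 3; log2 fold change -3.28, adjusted p = 4.23e-08 from edgeR). The homeobox factor SIX2 rose from 2.88 ± 0.172 to 16.8 ± 1.54 CPM (SD, n = 3; log2 fold change 2.54), and the forkhead factor FOXC1 from 11.1 ± 0.857 to 45.3 ± 1.56 CPM (SD, n = 3; log2 fold change 2.03). The other genes called lower, named after their values were seen, were RUNX2 (-1.46), FOSL1 (-1.15) and ETS1 (-1.06). Those called higher, named likewise, were SOX4 (1.40), MSX2 (1.28), PRRX1 (1.20) and ZNF703 (1.02). The call on ZNF703 was lost with DESeq2 (1.00) and without DMSO replicate 1 (0.98), DMSO replicate 2 (1.00) or NCD replicate 1 (0.96). With library totals FOSL1 (-0.95) and ETS1 (-0.87) were no longer called, and the list had 8 genes higher and 3 lower. All 6 called higher had a span of at most 100 kb, and 4 of the 5 called lower had a longer one. TCF3, the E protein E2A, had a log2 fold change of 0.04 (adjusted p = 0.660 from edgeR).

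ID proteins bind E proteins and keep them from DNA. ID2 rose from 0.875 ± 0.0308 to 4.50 ± 0.340 CPM (SD, n = 3; log2 fold change 2.35, adjusted p = 5.17e-06 from edgeR). ID1 fell from 63.1 ± 5.12 to 29.6 ± 3.88 CPM (SD, n = 3; log2 fold change -1.09, adjusted p = 1.96e-05 from edgeR), a call lost with library totals. ID3 was tested and not called, and ID4 had at most 3 counts.

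Of 15 epithelial transcription and splicing factors 8 were tested, and 6 were called higher and 0 lower. By DESeq2 and limma-voom, too, 0 were called lower, and every tested log2 fold change of the list was above 0 (lowest 0.25) by edgeR. All 8 tested factors span at most 100 kb. In the whole transcriptome, 20.8% of tested genes up to 10 kb were called higher and 6.23% lower. From 10 to 100 kb these shares were 13.7% and 7.34%. Most of the listed factors started from low levels. GRHL1, a paralog of GRHL2, rose from 1.44 ± 0.417 to 8.33 ± 0.941 CPM (SD, n = 3; log2 fold change 2.52, adjusted p = 6.55e-06 from edgeR). ESRP1, a regulator of epithelial splicing, rose from 0.981 ± 0.302 to 3.51 ± 0.779 CPM (SD, n = 3; log2 fold change 1.85, adjusted p = 0.000284 from edgeR). KLF4 rose from 18.0 ± 2.45 to 52.7 ± 1.00 CPM (SD, n = 3) and KLF5 from 25.7 ± 1.58 to 72.7 ± 2.50 CPM (SD, n = 3). The 7 that were not tested, among them OVOL2 and GRHL3, had at most 19 counts in any library.

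Of 25 epithelial junction, polarity and membrane genes 18 were tested, and 9 were called higher and 1 lower, with a median log2 fold change of 0.95. Of the 18, 16 span at most 100 kb, and these held the 9 higher calls, while the lower call was 1 of the 2 longer genes. In the whole transcriptome 20.8% of tested genes up to 10 kb and 13.7% from 10 to 100 kb were called higher. MAL2, a protein of apical transport, rose from 0.210 ± 0.118 to 2.04 ± 0.115 CPM (SD, n = 3; log2 fold change 3.25), with at most 6 counts in any DMSO library. It passed the filter through its NCD libraries. With at least 10 counts in every library 16 genes of the list were tested, and 8 were called higher and 1 lower. The tight junction protein cingulin (CGN) rose from 7.06 ± 0.902 to 28.9 ± 2.48 CPM (SD, n = 3; log2 fold change 2.03, adjusted p = 7.43e-07 from edgeR). Plakoglobin (JUP) rose from 4.88 ± 0.389 to 15.0 ± 0.522 CPM (SD, n = 3; log2 fold change 1.62). DSP rose from 41.7 ± 4.73 to 89.0 ± 5.93 CPM (SD, n = 3; log2 fold change 1.09, adjusted p = 7.28e-06 from edgeR). PATJ, a polarity protein encoded by a gene of 436.3 kb, fell from 8.87 ± 0.421 to 1.87 ± 0.483 CPM (SD, n = 3; log2 fold change -2.24). Without a fold threshold, 11 genes of the list were higher and 3 lower at adjusted p below 0.05 from edgeR. A fall was also seen in a shorter gene, CLDN4 (33.2 kb), named after its value was seen. Its mean went from 60.4 to 34.2 CPM (log2 fold change -0.82, adjusted p = 1.9e-05 from edgeR), and it was not called. SPINT2, at 58.0 CPM with DMSO, had a log2 fold change of -0.15 (adjusted p = 0.121 from edgeR). CDH1, the best known target of these repressors, had 1 count in each DMSO library and 3, 4 and 3 in those of NCD, too few to be tested. E-cadherin transcript was thus near the limit of 3 counts per library in both groups.

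E-boxes stood in the promoter windows of 8 of 16 epithelial genes with a window (50%), 5 of 11 epithelial factors (45.5%), 2 of 16 mesenchymal genes (12.5%) and 0 of 15 other EMT factors, beside 20.6% of all windows. Among all tested genes with a promoter window, 298 of 2019 with the motif were called higher (14.8%) and 1063 of 9056 without it (11.7%). The epithelial genes were listed as targets of EMT factors, so a higher share may follow from that choice. For the lists, windows were counted whether or not the gene was tested. These shares are descriptions of the letters in the windows.

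Of 22 mesenchymal genes 17 were tested, and 1 was called higher and 11 lower, with a median log2 fold change of -1.18. Tenascin C (TNC) fell from 113 ± 12.8 to 19.9 ± 0.118 CPM (SD, n = 3; log2 fold change -2.50), the collagen crosslinking enzyme LOXL2 from 227 ± 10.4 to 54.9 ± 2.21 CPM (SD, n = 3; -2.05) and the collagen gene COL5A1 from 9.29 ± 0.651 to 2.25 ± 0.298 CPM (SD, n = 3; -2.04). Fibronectin (FN1) went from 174 ± 15.4 to 141 ± 8.55 CPM (SD, n = 3; log2 fold change -0.31, adjusted p = 0.00666 from edgeR) and was not called. N-cadherin (CDH2) had counts of 5, 6 and 4 under DMSO and 1, 3 and 2 under NCD and was not tested. The gene called higher, named after its value was seen, was the smooth muscle actin gene ACTA2 (log2 fold change 1.57). Among the 13 tested genes of at most 100 kb, 7 were called lower and 1 higher. In the whole transcriptome 17.5% of tested genes were called lower, with 6.23% up to 10 kb and 7.34% from 10 to 100 kb. With library totals 8 of the 17 were called lower. With at least 10 counts in every library 15 were tested, and 10 were called lower and 1 higher. VIM, at -0.21, is not part of this list.

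**Figure D4:**
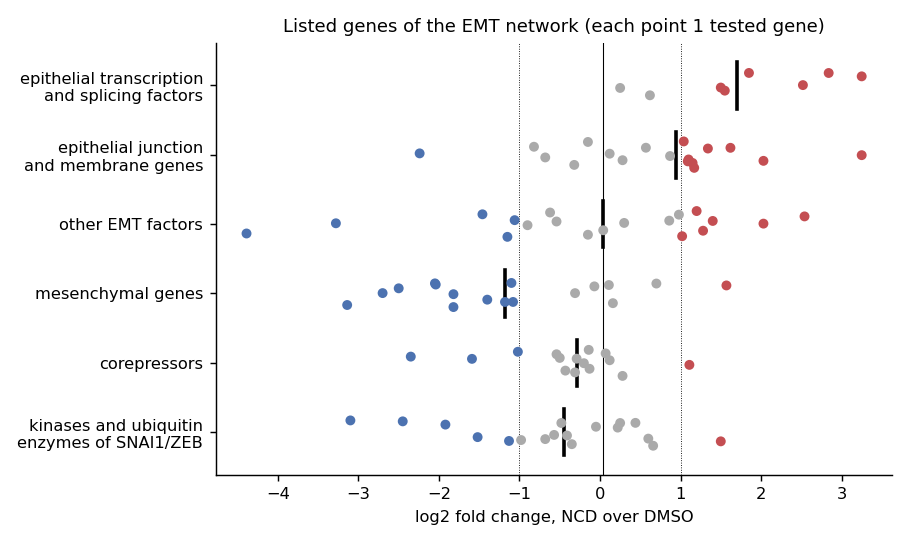
Log2 fold changes (NCD over DMSO) of the tested genes of 6 lists, 1 point per gene, red where called higher, blue where called lower and grey where not called. Thick bars give each list's median, the thin line the median of all tested genes (0.04) and dotted lines the fold threshold of 1. Epithelial factors have a median of 1.70 and mesenchymal genes of -1.18.

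All 15 corepressors that ZEB and SNAI proteins work with were tested, and 1 was called higher and 3 lower. The shares over all tested genes were 13.5% higher and 17.5% lower. CTBP2, a CtBP protein recruited by ZEB factors, fell from 83.5 ± 0.407 to 16.3 ± 1.43 CPM (SD, n = 3; log2 fold change -2.35, adjusted p = 3.76e-08 from edgeR). RCOR1 (CoREST), a partner of the demethylase KDM1A, had a log2 fold change of -1.59. SMARCA4, the BRG1 remodelling ATPase, had -1.02, at the edge of the fold threshold, and its call was lost with library totals (-0.83) and without DMSO replicate 2 (-0.99). AJUBA, a LIM protein that binds SNAI1, rose from 125 ± 1.60 to 271 ± 22.0 CPM (SD, n = 3; log2 fold change 1.11). The 3 called lower are the corepressor genes longer than 100 kb. Without a fold threshold, 8 corepressors were lower and 2 higher at adjusted p below 0.05 from edgeR. By that rule 69.3% of all tested genes passed in either direction.

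Of 19 kinases and ubiquitin enzymes listed as acting on SNAI1 or ZEB proteins, 18 were tested, and 1 was called higher and 5 lower. Over all tested genes 13.5% were called higher and 17.5% lower. GSK3B, which marks SNAI1 protein for degradation, fell from 76.5 ± 7.02 to 8.92 ± 1.19 CPM (SD, n = 3; log2 fold change -3.10, adjusted p = 5.72e-08 from edgeR). BTRC, the ubiquitin ligase subunit that recognises the marked SNAI1, fell from 37.5 ± 0.969 to 6.82 ± 1.39 CPM (SD, n = 3; log2 fold change -2.45, adjusted p = 4.86e-07 from edgeR). The ubiquitin ligase subunit FBXW7 had a log2 fold change of -1.92 and the proteasome deubiquitinase PSMD14 of -1.52. Named after their values were seen, the kinase PAK1 had -1.13 and the deubiquitinase USP27X 1.50. The call on PAK1 was lost with library totals (-0.93). All 5 genes called lower were longer than 100 kb, as were 2 that were not called. Protein levels were not measured in these libraries.

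Of 13 other intermediate filament and linker genes 7 were tested. LMNB1, a nuclear lamin, fell from 209 ± 8.14 to 91.7 ± 2.56 CPM (SD, n = 3; log2 fold change -1.19, adjusted p = 2.36e-07 from edgeR), a call lost with library totals. GFAP, the filament gene of astrocytes, rose from 0.877 ± 0.0476 to 2.68 ± 0.369 CPM (SD, n = 3; log2 fold change 1.60, adjusted p = 0.000202 from edgeR), from 15, 16 and 15 counts to 53, 59 and 57. The 6 that were not tested had at most 11 counts.

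The genes whose log2 CPM followed ZEB1 most closely over the 6 libraries were PBRM1, RHOBTB3 and OPA1 (Pearson r of 1.000 each), with log2 fold changes of -1.39, -0.82 and -1.65. Those closest to VIM were MCM4, SZRD1 and MYDGF (r of 0.999, 0.996 and 0.995). With 2 groups of 3 libraries such likeness is common, and 3502 of 10783 genes had an r above 0.9 with ZEB1 and 1543 with VIM.

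The libraries held 18223594 to 19410833 counts with DMSO and 18232169 to 21629653 with NCD. All 7 markers of MDA-MB-231 were present, with summed levels of 7068 to 7387 CPM with DMSO and 4094 to 4369.9 CPM with NCD, and 5 of them were called lower. Over all tested genes 17.5% were called lower and 13.5% higher. This list overlaps those above, as CD44, AXL, MSN and NT5E are also listed mesenchymal genes and VIM is a member. The 7 markers of luminal breast cells summed to 28.4 to 30.1 CPM and 40.0 to 46.8 CPM, and ESR1, PGR and CDH1 had at most 7 counts. Of the 4 luminal markers tested, 1 was called higher and 0 lower, and 3 were higher by edgeR without a fold threshold. By that rule 69.3% of all tested genes passed in either direction. The luminal marker called higher, FOXA1, is also in the list of epithelial factors. The 7 markers of other cell types summed to 86.2 to 96.5 CPM and 107 to 114 CPM, most of it CD68, with PTPRC and CD3E at no more than 1 count and the stromal genes COL1A1 and PDGFRB called higher. Their part in the results was not tested.

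**Figure D5:**
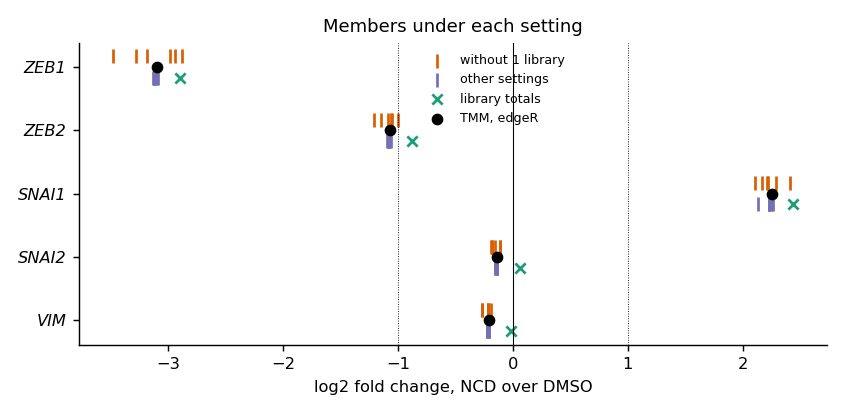
Log2 fold change (NCD over DMSO) of the 5 tested members with TMM and edgeR (black), without 1 library (orange), with library totals (green cross) and under the other settings (purple), with dotted lines at the fold threshold of 1. ZEB1 and SNAI1 stay past the threshold in every setting shown, ZEB2 falls short of it with library totals at -0.88, and SNAI2 and VIM stay near 0.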

How the data were processed

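RNA sequencing was analysed for 3 DMSO and 3 NCD libraries of MDA-MB-231 cells. The authors aligned the reads with HiSat2 and deposited expected counts per Ensembl gene estimated by RSEM, without normalization. The labels' processing notes name GRCh38. Expected counts were rounded and tested with edgeR 4.0.16 in R 4.3.3 (filterByExpr, TMM, glmQLFit, glmQLFTest), on 15295 genes. TMM factors were 0.911 to 0.949 with DMSO and 1.06 to 1.09 with NCD. Standard errors were derived from the F statistic, as |log2 fold change| over its square root. In each library 25 lines with no gene were skipped. Symbols matched 62666 of 63241 identifiers, and GENCODE release 29 holds 58228 of them, with at least 99.4% of the counts. TWIST1-AS1 was listed and not matched. Within-group differences exceeded sampling noise in every pair of libraries (chi-square per degree of freedom of at least 2.06). The test was checked on simulated counts with a small share of genes changed and the same variability for all genes. That check does not cover the scaling where most genes change, nor genes as variable as ZEB1.

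The members and gene lists were chosen with earlier results of these data known. Named genes are the members, the 4 called genes of each list with the largest absolute change and a mean of at least 1 CPM, CDH1, CDH2, FN1, TCF3, ID1, ESRP1, the antisense and host genes, and the 3 genes most like ZEB1 and VIM (mean of at least 5 CPM). A gene that this rule covers is not reported here. A pseudocount of 0.5 CPM was used for spread and correlation. Alternatives were DESeq2 1.42.0, limma-voom (limma 3.58.1), other scalings and filters, no fold threshold, a prior count of 2, a replicate block and each library left out. Protein sequences and the promoter windows of SNAI1, SNAI2, TWIST1, GRHL2 and OVOL1 were not used here.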

Additional observations from a re-analysis of the deposited data

How the results depend on the processing

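ZEB1 lower and SNAI1 higher were called under every alternative run, and each member kept its direction except SNAI2. With library totals in place of TMM, SNAI2 was 0.06 in place of -0.14 and ZEB2 -0.88 in place of -1.07, and the lower calls were 1 for the members, 3 for the other EMT factors, 0 for the ID proteins and 0 for the intermediate filaments. This scaling shifted the median of all genes by 0.20. Without a fold threshold 10602 genes passed, 5393 higher and 5209 lower, with 8 other EMT factors, 2 ID proteins, 3 epithelial genes, 8 corepressors, 11 kinases and ubiquitin enzymes and 5 intermediate filaments lower, and 2 mesenchymal genes, 2 corepressors and 5 kinases and ubiquitin enzymes higher. With at least 10 counts in every library, where 13498 genes were tested, 1376 were called higher. Without a filter, 2 mesenchymal genes and 2 intermediate filaments were called higher. Over fits without 1 library, 4653 to 5049 genes were called, and 1 to 2 mesenchymal genes were called higher, 2 without DMSO replicate 1, 2 or 3 or NCD replicate 1.

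Replicate numbers did not pair the libraries (correlations of deviations 0.216, -0.185 and 0.0226). The replicate block gave 4723 calls, with ZEB1 at -3.11, ZEB2 at -1.08 and SNAI1 at 2.26, and changed no call on a member. DESeq2 called 4609 genes and limma-voom 4763. With the summed exon length, an alternative chosen after seeing the data, the order of the members per kb was the same in 3 of 6 libraries. At this depth TWIST1, TWIST2, TCF4, GRHL2, OVOL1 and CDH1 cannot be compared between groups.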
